A study of Homo sapiens with 12 samples.

Results

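ATF4 and 9 genes that act with it or under it in the integrated stress response were followed through 4 states of one human esophageal adenocarcinoma line. The 10 genes, ATF4, ATF3, ATF5, DDIT3, CEBPB, CEBPG, TRIB3, CHAC1, SESN2 and DDIT4, were taken by symbol from the 57500 genes of a count table. They were chosen with earlier results of these data known. All 10 were among the 15805 genes with enough counts to be tested. The integrated stress response is a translational programme: kinases that sense amino acid shortage, misfolded protein in the endoplasmic reticulum, haem shortage or viral RNA phosphorylate eIF2 alpha, which slows protein synthesis in general and lets ribosomes reach the ATF4 reading frame. The ATF4 protein then pairs with C/EBP and other bZIP proteins and switches on genes of amino acid uptake and synthesis, of tRNA charging and, when stress lasts, of cell death. Transcript counts report the abundance of ATF4 mRNA and of its targets, while the translational step itself is not seen in them.

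Each group held 3 libraries of polyadenylated RNA from OE33, an epithelial line from an esophageal adenocarcinoma. Parental cells were untreated. The rABS cells had survived 15 days of a daily 20 minute exposure to bile salts at 200 µM and pH 5.5, a model of reflux. The shCtrl and shAPE1 cells were such rABS survivors that afterwards received, by stable transduction, a hairpin RNA without a target or one against APE1, the product of APEX1, which cuts DNA at abasic sites and reduces transcription factors. Both hairpin groups therefore carry the exposure as well as a vector, and no group was mock-treated, so that time in culture and the exposure cannot be told apart between Parental and the others. The study text calls the replicates of a group independent and does not say whether each had its own exposure series or transduction, and one APE1 hairpin is named.

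The libraries held 15736087 to 23010377 counts. APEX1 was at 52.9 to 56.9 CPM (counts scaled to a common library size) in Parental, 79.9 to 84.5 in rABS, 56.5 to 62.0 in shCtrl and 4.42 to 5.88 in shAPE1, lowest in the group labelled with its hairpin. The 5 epithelial markers EPCAM, KRT8, KRT18, KRT19 and CDH1 were each at 110 CPM or more in every library. The summed level of 5 fibroblast markers was 20.9 to 27.0 CPM in Parental, 3.53 to 4.22 in rABS, 9.48 to 10.0 in shCtrl and 7.42 to 8.30 in shAPE1, with LUM at 0 throughout. That of 4 leukocyte markers was 5.17 to 6.79, 20.3 to 24.4, 9.40 to 10.9 and 10.7 to 12.3 CPM in the same order, and that of 3 endothelial markers was at most 0.826 CPM in any library. These sums moved with the groups at levels far under those of the epithelial markers, and their part in the results was not tested.

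ATF4 and its C/EBP partners are known to bind composite C/EBP-ATF elements, whose core can be written TGATGNAA, and ATF and CREB proteins bind the cAMP response element TGACGTCA. The RefSeq promoters of GRCh38.p14, from 250 bases before to 50 after a start site, were searched on both strands for these letters. All 10 genes had 1 to 3 such windows. TGATGNAA was found in 1 window each of ATF3, CEBPG and CHAC1, and TGACGTCA in none of the 10 genes. The 3 upstream stretches are shown because they hold the only matches, with the match in capitals and written 5′ to 3′ on the strand of the gene. They lie at chr1:212565157-212565406, chr19:33373863-33374112 and chr15:40953221-40953470, all on the plus strand.
ATF3: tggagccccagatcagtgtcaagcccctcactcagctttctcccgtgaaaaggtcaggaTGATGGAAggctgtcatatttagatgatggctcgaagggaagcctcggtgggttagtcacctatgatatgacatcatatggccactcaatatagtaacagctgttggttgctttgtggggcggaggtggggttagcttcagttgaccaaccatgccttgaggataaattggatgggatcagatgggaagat
CEBPG: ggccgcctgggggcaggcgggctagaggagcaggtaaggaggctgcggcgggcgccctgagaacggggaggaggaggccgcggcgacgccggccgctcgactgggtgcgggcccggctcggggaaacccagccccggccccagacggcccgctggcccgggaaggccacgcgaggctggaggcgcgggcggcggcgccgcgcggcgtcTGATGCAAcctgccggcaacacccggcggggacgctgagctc
CHAC1: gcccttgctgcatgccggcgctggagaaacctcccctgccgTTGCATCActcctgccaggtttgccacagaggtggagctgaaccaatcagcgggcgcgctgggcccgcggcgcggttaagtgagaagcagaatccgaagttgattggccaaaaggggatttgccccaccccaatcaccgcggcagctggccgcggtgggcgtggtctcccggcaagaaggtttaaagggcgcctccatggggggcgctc
The match in ATF3, TGATGGAA, begins 191 bases upstream of the start site, that in CEBPG, TGATGCAA, 42 bases upstream, and that in CHAC1, TTGCATCA, which is the element on the opposite strand, 209 bases upstream. ATF3 and CEBPG each had a second window without the letters. Over all RefSeq promoter windows of this length, 3.62% of 35116 held TGATGNAA and 1.85% held TGACGTCA. Among tested genes with a window, 2.72% of 11038 held TGATGNAA. A match is a string of letters and not a shown binding site.

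The genes stood at 2 levels in these cells, high in Parental and low in the 3 exposed groups, with ATF5 as the exception. From here on, levels are CPM after scaling of the library sizes, given for replicates 1, 2 and 3 in that order. Changes are log2 values with their standard error, from an edgeR quasi-likelihood fit to all 12 libraries, and a gene is called when its Benjamini-Hochberg adjusted p over the 15805 genes is under 0.05. The plot of levels by library shows the 12 values of each gene.

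**Figure D1:**
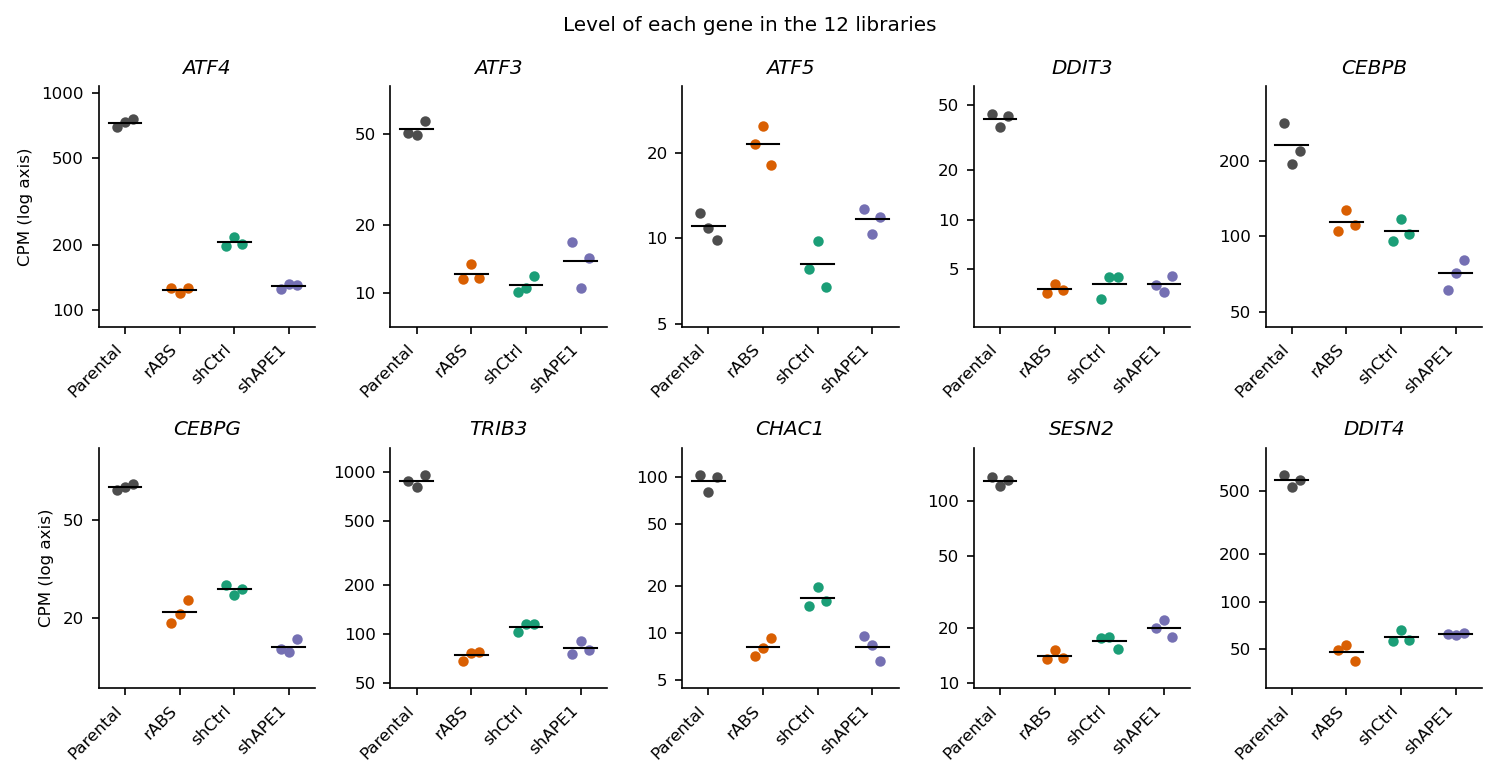
CPM (log axis) of the 10 genes in the 12 libraries, 1 panel per gene, with 1 point per library, colours for the 4 groups and a black line at the group mean. The 3 Parental libraries stood above all 9 others for every gene but ATF5, which was highest in rABS.

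Between Parental and rABS, 9 of the 10 genes fell and ATF5 rose. Among all tested genes 29.9% were called lower and 29.9% higher, so calls in either direction were common. The median log2 change of the 10 genes was -2.88, against -0.01 over all genes tested. DDIT4 ranked 41, TRIB3 43, CHAC1 48, DDIT3 52, SESN2 64 and ATF4 115 from the largest fall among the 15805 genes. ATF3 ranked 261, CEBPG 482 and CEBPB 1578, the last of them well inside the 4725 called falls.

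ATF4 (ENSG00000128272, chromosome 22, 39519695 to 39522685, plus strand, GRCh38), the transcription factor at the centre of the response, stood at 696, 735 and 755 CPM in Parental and at 126, 119 and 126 in rABS. It fell to 17.0% of the Parental mean, from 729 ± 30.1 to 124 ± 4.23 CPM (mean and SD, n = 3 each), a log2 change of -2.56 ± 0.07 with adjusted p = 1.56e-24. These levels rested on 2044 counts or more per library. In bulk RNA, fewer cells that express a gene and less of its RNA per cell cannot be told apart. Its 4 processed pseudogenes in the table held 0 to 4 counts per library.

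TRIB3 (ENSG00000101255, chromosome 20, 362835 to 397559) encodes a pseudokinase that ATF4 and CHOP induce and that binds ATF4 and AKT, acting back on the response. TRIB3 was at 884, 803 and 954 CPM in Parental and at 68.6, 76.8 and 77.8 in rABS. The groups were far apart, and the fall was 11.8-fold, a log2 change of -3.56 ± 0.08 with adjusted p = 1.05e-25. In Parental there were 121 TRIB3 counts per 100 ATF4 counts, and in rABS 60.0.

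DDIT3 (ENSG00000175197, chromosome 12, 57516588 to 57521737, minus strand) encodes CHOP, the bZIP factor tied to cell death under prolonged stress. It was at 44.2, 37.0 and 43.1 CPM in Parental and at 3.59, 4.07 and 3.73 in rABS, a 10.9-fold fall with a log2 change of -3.44 ± 0.14 (adjusted p = 4.26e-20). In GENCODE 29, DDIT3 exons share 355 bases with MARS1, the methionyl-tRNA synthetase gene, and 58 with MBD6, both on the opposite strand. As the strand setting of the counting is not given in the sources used here, reads of these genes cannot be told apart there. MARS1 itself fell from 352 to 89.1 CPM, a log2 change of -1.98 ± 0.07.

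CHAC1 (ENSG00000128965, chromosome 15, 40952962 to 40956519) encodes a gamma-glutamylcyclotransferase that degrades glutathione. It stood at 103, 80.0 and 100 CPM in Parental and at 7.12, 8.09 and 9.33 in rABS. SESN2 (ENSG00000130766, chromosome 1, 28259527 to 28282491), sestrin 2, a leucine-binding inhibitor of mTORC1 signalling, stood at 136, 122 and 132 and at 13.6, 15.1 and 13.7 CPM. DDIT4 (ENSG00000168209, chromosome 10, 72273920 to 72276036), also called REDD1, which restrains mTORC1 through TSC2, stood at 630, 527 and 588 and at 49.1, 53.5 and 42.1 CPM. All 3 genes were separated between the groups by a wide gap, and the falls were 11.5-fold for CHAC1 (log2 -3.52 ± 0.13, adjusted p = 6.04e-21), 9.21-fold for SESN2 (-3.20 ± 0.10, adjusted p = 4.76e-23) and 12.1-fold for DDIT4 (-3.59 ± 0.09, adjusted p = 1.94e-25). DDIT4 shares 847 exon bases with the antisense gene DDIT4-AS1, which had 0 counts in every library.

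ATF3 (ENSG00000162772, chromosome 1, 212565334 to 212620777), a bZIP factor that is induced by many stresses and can repress transcription, stood at 50.1, 49.4 and 57.0 CPM in Parental and at 11.5, 13.4 and 11.7 in rABS. Its log2 change was -2.10 ± 0.12 (adjusted p = 6.48e-16). The C/EBP partners had the smallest changes of the 9 genes that fell. CEBPG (ENSG00000153879, chromosome 19, 33373330 to 33382686), a short C/EBP protein that pairs with ATF4, went from 66.4, 68.3 and 69.9 to 19.1, 20.8 and 23.8 CPM, a log2 change of -1.68 ± 0.09 (adjusted p = 1.98e-16). CEBPB (ENSG00000172216, chromosome 20, 50190734 to 50192689), a C/EBP factor of stress and inflammation, went from 284, 194 and 220 to 105, 127 and 111 CPM, a log2 change of -1.02 ± 0.13 (adjusted p = 6.31e-06). Parental replicate 1 was the highest CEBPB library, and without it the log2 change of CEBPB was -0.83, still called. CEBPB-AS1, which shares 231 exon bases with CEBPB, had 1 to 13 counts.

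ATF5 (ENSG00000169136, chromosome 19, 49928702 to 49933935) went the other way. ATF5 is a bZIP factor whose translation, like that of ATF4, depends on upstream reading frames, and which is known for the response to mitochondrial protein stress. ATF5 mRNA stood at 12.3, 10.9 and 9.91 CPM in Parental and at 21.5, 24.8 and 18.2 in rABS, with no overlap, and it rose 1.95-fold (log2 0.96 ± 0.14, adjusted p = 3.07e-07). ATF5 exons share 626 bases with NUP62 and 75 with IL4I1, both on the opposite strand, so that reads there cannot be told apart either.

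**Figure D2:**
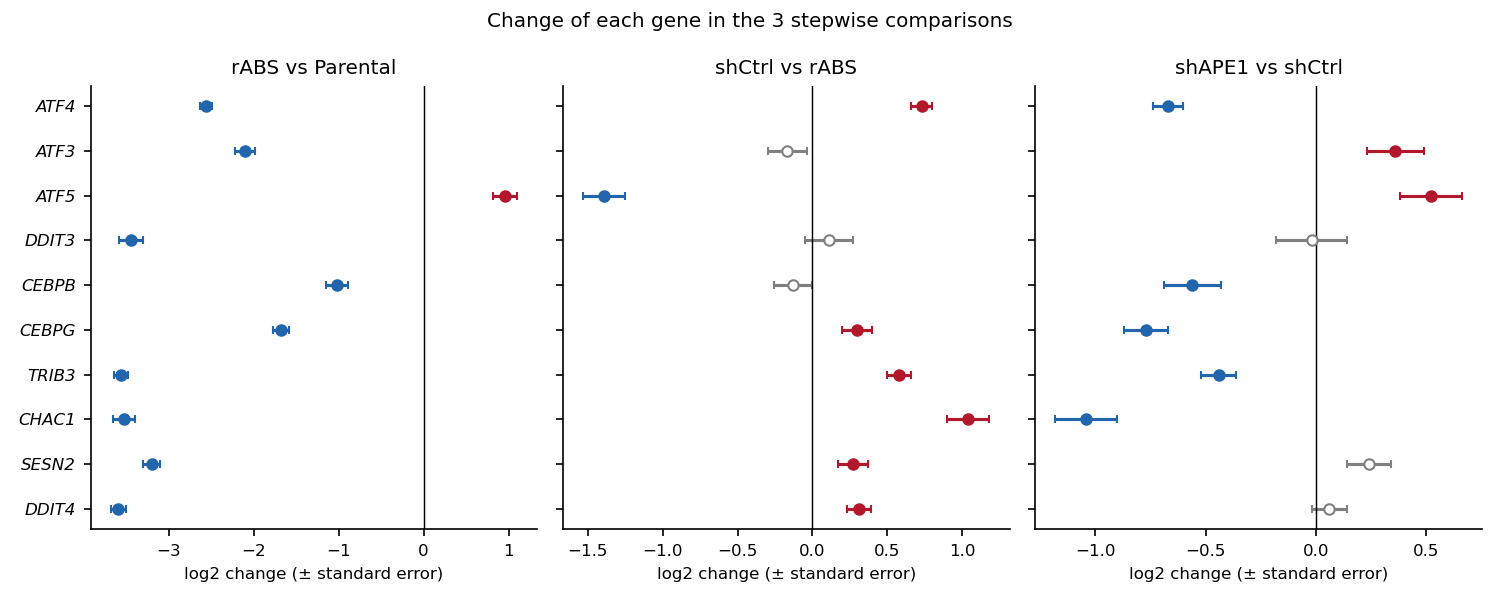
Log2 change (x axis) with its standard error for the 10 genes in rABS against Parental, shCtrl against rABS and shAPE1 against shCtrl. Filled points are called genes, red for higher and blue for lower, open grey points are not called, and the x axes differ: the falls in the first panel reach -3.59, while the largest changes of the other panels are -1.39 and -1.04.

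The comparison of shCtrl with rABS holds the difference between transduced and untransduced survivors. Of the 10 genes, 6 rose (ATF4, CEBPG, TRIB3, CHAC1, SESN2 and DDIT4), ATF5 fell, and ATF3, DDIT3 and CEBPB were not called. The background was 17.9% of tested genes higher and 18.6% lower. The median log2 change of the 10 genes was 0.28, and that of all genes 0.02.

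ATF4 was at 198, 216 and 201 CPM in shCtrl, above every rABS library, and rose 1.65-fold (log2 0.73 ± 0.07, adjusted p = 2.21e-10). CHAC1, at 14.9, 19.7 and 16 CPM, rose 2.06-fold (log2 1.04 ± 0.14, adjusted p = 3.22e-07). TRIB3, at 103, 116 and 115 CPM, rose 1.5-fold (log2 0.58 ± 0.08, adjusted p = 6.77e-07). For these 3 genes the groups did not overlap, and the shCtrl level was still 28.1%, 17.9% and 12.6% of the Parental mean. ATF5, at 7.82, 9.80 and 6.77 CPM, fell to 38.1% of the rABS mean (log2 -1.39 ± 0.14, adjusted p = 1.86e-09) and ranked 101 from the largest fall of the tested genes.

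The other 3 rises were smaller, and each lost its call in at least 1 of the 14 alternatives. DDIT4 was at 56.7, 65.7 and 57.1 CPM, with a log2 change of 0.31 ± 0.08 and adjusted p = 0.00364. Without rABS replicate 3 it was 0.22 with adjusted p = 0.0541, the only alternative of 14 that ended the call, and the lowest adjusted p was 0.000822. CEBPG was at 27.3, 24.9 and 26.3 CPM, with 0.30 ± 0.10 and adjusted p = 0.0145. Leaving out rABS replicate 1, rABS replicate 2 or shCtrl replicate 1 gave 0.22, 0.28 and 0.26 and ended the call, and the adjusted p of CEBPG ran from 0.00467 to 0.116 over the alternatives. SESN2 was at 17.7, 17.9 and 15.3 CPM, with 0.27 ± 0.10 and adjusted p = 0.0395. Its call was lost in 10 of 14 alternatives, 6 of them with another scaling, test, filter or model, and 4 of them without rABS replicate 1 (0.24), rABS replicate 3 (0.24), shCtrl replicate 1 (0.23) and shCtrl replicate 2 (0.22), with adjusted p from 0.0134 to 0.143. The 3 genes not called had log2 changes of -0.17 ± 0.13 (ATF3), 0.11 ± 0.16 (DDIT3) and -0.13 ± 0.13 (CEBPB), and their groups overlapped.

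The comparison of shAPE1 with shCtrl addresses what the APE1 hairpin changed in exposed and transduced cells. ATF4, both C/EBP partners, TRIB3 and CHAC1 fell, ATF3 and ATF5 rose, and DDIT3, SESN2 and DDIT4 were not called. The background was 18.8% of tested genes lower and 17.8% higher. The median log2 change of the 10 genes was -0.23, and that of all genes -0.02. This comparison shares the shCtrl libraries with the one before, so a high value in shCtrl enters one as a rise and the other as a fall.

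ATF4 was at 125, 132 and 130 CPM in shAPE1, below all shCtrl libraries, and fell to 63.0% of the shCtrl mean, with a log2 change of -0.67 ± 0.07 (adjusted p = 7.35e-10). CEBPG, at 15.0, 14.6 and 16.4 CPM, fell to 58.7% (log2 -0.77 ± 0.10, adjusted p = 1.51e-07) and was lower than in any other group. CHAC1, at 9.54, 8.38 and 6.63 CPM, fell to 48.7% (log2 -1.04 ± 0.14, adjusted p = 2.41e-07). Groups did not overlap for any of these genes. TRIB3, at 75.2, 91.0 and 80.1 CPM, fell to 73.8% (log2 -0.44 ± 0.08, adjusted p = 3.75e-05), and CEBPB, at 61.1, 71.7 and 80.8 CPM, to 67.9% (log2 -0.56 ± 0.13, adjusted p = 0.00423). These 5 falls were called in every alternative that was run.

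ATF5 was at 12.7, 10.4 and 11.9 CPM, above the shCtrl libraries, and rose 1.43-fold (log2 0.52 ± 0.14, adjusted p = 0.00487). Without shCtrl replicate 3 its log2 change was 0.40 with adjusted p = 0.0535, and over the 14 alternatives the adjusted p ran from 0.00109 to 0.0535. ATF3 was at 16.7, 10.6 and 14.3 CPM, and its lowest shAPE1 library lay inside the shCtrl range of 10.1 to 11.9. Its log2 change of 0.36 ± 0.13 (adjusted p = 0.0297) was called in 8 of 14 alternatives. It was 0.19 without shAPE1 replicate 1, 0.34 without shAPE1 replicate 3, 0.31 without shCtrl replicate 1 and 0.33 without shCtrl replicate 2, none of them called, with adjusted p from 0.00143 to 0.323 over all alternatives.

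The mTORC1 restraining genes and CHOP showed another picture. DDIT3 was at 3.97, 3.60 and 4.56 CPM, with a log2 change of -0.02 ± 0.16, and DDIT4 at 62.7, 61.5 and 63.7 CPM, with 0.06 ± 0.08, both with overlapping groups. SESN2 was at 20.1, 22.2 and 17.8 CPM, with 0.24 ± 0.10 and adjusted p = 0.0548. That value passed the threshold in 4 of 14 alternatives, one of them without shAPE1 replicate 3 (0.32, adjusted p = 0.0207), with a highest adjusted p of 0.267. Per 100 ATF4 counts, shCtrl held 29.2 DDIT4 counts and shAPE1 48.6. For SESN2 these numbers were 8.27 and 15.5, and for CHAC1 8.18 and 6.27.

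Set against Parental, the transduced cells kept low levels. In shCtrl against Parental all 10 genes fell, where 26.1% of tested genes were lower and 27% higher, and the median log2 change was -2.37 for the 10 genes and 0.03 for all genes. The ATF5 fall there was small, at -0.43 ± 0.15 with adjusted p = 0.0128, and was lost without Parental replicate 1 (-0.36), without shCtrl replicate 3 (-0.32) and with libraries scaled by their totals alone (-0.24), with adjusted p from 0.00248 to 0.174. In shAPE1 against Parental 9 genes fell and ATF5 was not called (log2 0.08 ± 0.14), where 27.5% of tested genes were lower and 26.2% higher. DDIT3 stood at 9.91% of its Parental mean in shCtrl and 9.76% in shAPE1, and DDIT4 at 10.3% and 10.8%.

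In shAPE1 against rABS, where vector and hairpin both differ, the 10 genes split. ATF5 (log2 -0.88 ± 0.14, adjusted p = 2.18e-06), CEBPB (-0.69 ± 0.14, adjusted p = 0.000567) and CEBPG (-0.47 ± 0.10, adjusted p = 0.000206) fell, while SESN2 (0.51 ± 0.10, adjusted p = 9.84e-05) and DDIT4 (0.38 ± 0.08, adjusted p = 0.000361) rose. The background was 26.2% lower and 23.8% higher. ATF4 differed by 0.06 ± 0.07, TRIB3 by 0.14 ± 0.08, CHAC1 by 0.01 ± 0.15, DDIT3 by 0.09 ± 0.17 and ATF3 by 0.19 ± 0.13, none of them called and all with overlapping groups. ATF3 was called without shAPE1 replicate 2 (0.35, adjusted p = 0.0203, with a highest of 0.905 over the alternatives), and TRIB3 with upper-quartile scaling (0.20, adjusted p = 0.0356, with a highest of 0.575). For ATF4, TRIB3 and CHAC1 the shAPE1 level thus lay beside that of rABS, with shCtrl above both.

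Read per kilobase of exon, which allows genes to be set beside each other, ATF4, DDIT4 and TRIB3 led in Parental at 290 ± 12, 283 ± 25.2 and 256 ± 22.0 CPM per kb, with overlapping libraries between neighbours. CEBPB followed at 119 ± 23.7, then CHAC1 at 45.9 ± 6.16 and SESN2 at 37.6 ± 2.09, which overlapped, then DDIT3 at 31.7, CEBPG at 15.5, ATF3 at 12.9 and ATF5 at 3.74. In rABS the order changed: CEBPB was first at 58.6 ± 5.69, ATF4 second at 49.2 ± 1.68, with no overlap between them, and DDIT4 (23.4) and TRIB3 (21.7) overlapped behind them. ATF5 moved from last place to the fifth at 7.28 ± 1.12, above CEBPG at 4.81. The lowest were ATF3 at 3.02 and DDIT3 at 2.90, which overlapped. In shCtrl and shAPE1 ATF4 was again first, at 81.4 ± 3.77 and 51.3 ± 1.39, with CEBPB second at 53.5 and 36.4 CPM per kb. At the low end of shAPE1, CHAC1, ATF5, CEBPG, ATF3 and DDIT3 lay between 3.98 and 3.09, each overlapping the next.

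How closely the other genes followed ATF4 was described by the root mean square distance between log2 CPM profiles over the 12 libraries, each centred on its own mean, over 10510 genes at a mean of 5 CPM or more. Of the 9, CEBPG was nearest at 0.33 (rank 37), then ATF3, CHAC1 and SESN2 at 0.44, TRIB3 at 0.46, DDIT4 at 0.54, DDIT3 at 0.55 and CEBPB at 0.58. ATF5 was at 1.33, rank 9106. Outside the 10, the nearest 5 genes were UNC5B, a netrin receptor, at 0.12, CARS1, the cysteinyl-tRNA synthetase, at 0.13, PCK2, the mitochondrial phosphoenolpyruvate carboxykinase, at 0.16, ERN1, the endoplasmic reticulum stress sensor IRE1 alpha, at 0.17 and GFPT1, the entry enzyme of the hexosamine pathway, at 0.18. The libraries of a group share their treatment, so these distances mainly describe 4 group levels. CARS1, for example, was at 246, 46.2, 79.8 and 54.1 CPM on average in Parental, rABS, shCtrl and shAPE1, and UNC5B at 67.4, 10.7, 18.0 and 11.2.

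**Figure D3:**
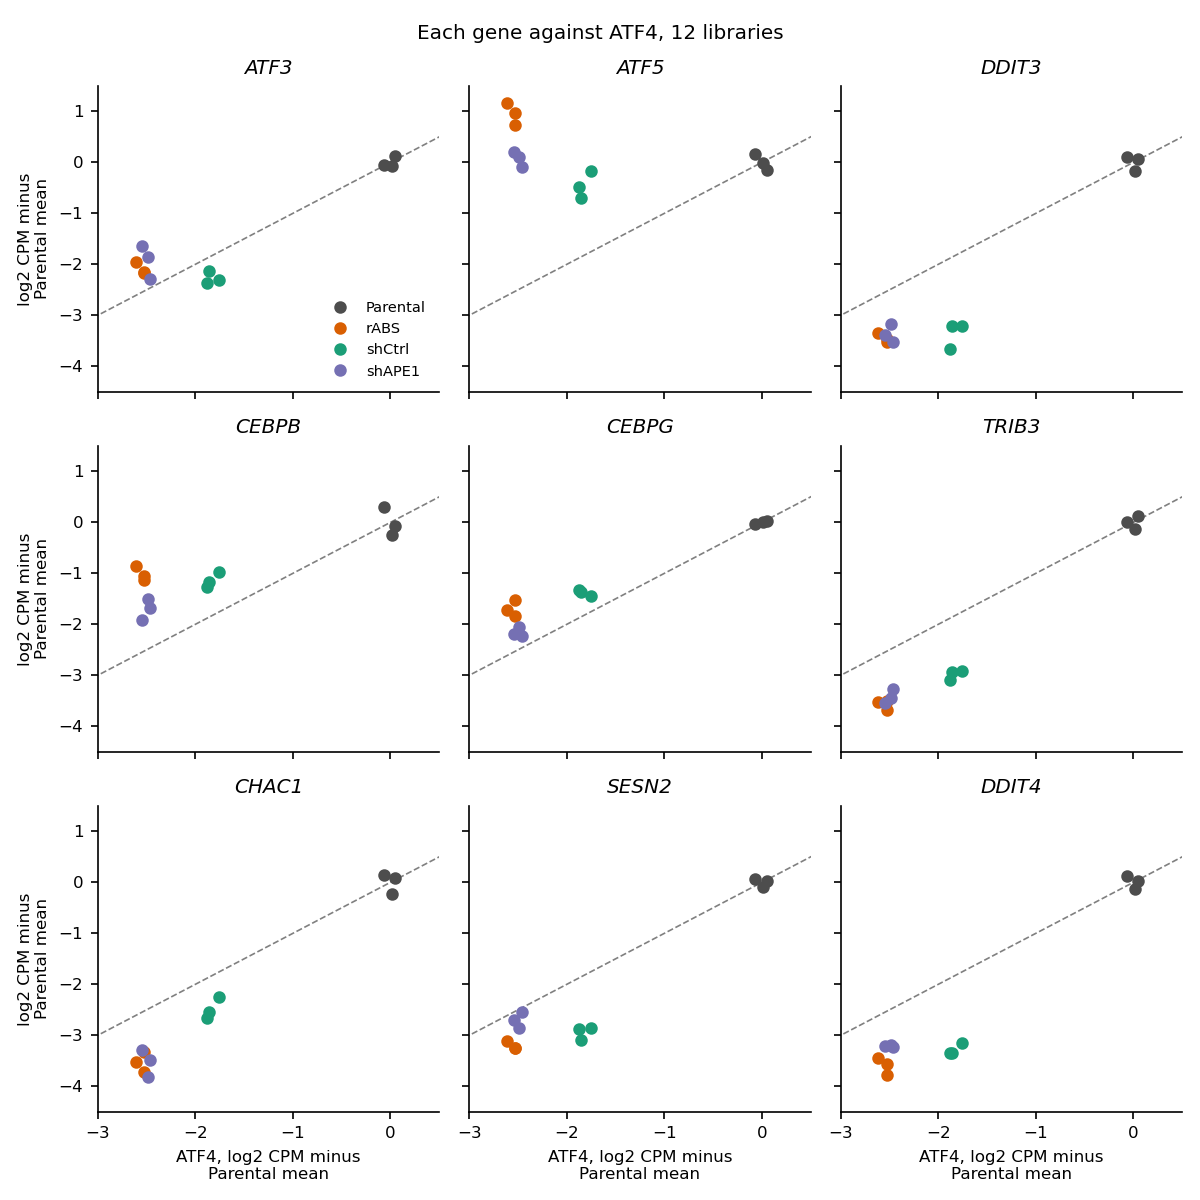
Level of 9 genes (y axis) against that of ATF4 (x axis), both as log2 CPM minus the Parental mean, with 1 point per library and a dashed line where both changed alike. The 9 exposed libraries lay below the line for TRIB3, CHAC1, SESN2, DDIT3 and DDIT4, further from Parental than for ATF4, and above it for CEBPB, CEBPG and ATF5.

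The wider pathway was read from 14 lists of 166 genes, of which 161 were tested. The lists were put together with earlier results of these data known, and ATF6 and XBP1 stand in more than one of them. In rABS against Parental 92 of the 161 fell, 42 rose and 27 were not called, where 29.9% of all tested genes were called in each direction. There the share of falls was larger than over all tested genes and that of rises smaller. In shCtrl against rABS 45 rose and 40 fell, and in shAPE1 against shCtrl 41 rose and 47 fell. In these later comparisons the share in each direction was larger than over all tested genes.

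Upstream of ATF4, the kinases of eIF2 alpha moved little between Parental and rABS, where 29.9% of all tested genes were called in each direction. EIF2AK1, the haem-regulated kinase HRI, fell by 0.34 on the log2 scale, EIF2AK4, the amino acid sensor GCN2, rose by 0.21, and EIF2AK2 (PKR, 0.04 ± 0.09) and EIF2AK3 (PERK, -0.18 ± 0.12) were not called. GCN1, which activates GCN2 on ribosomes, fell from 863 to 568 CPM, and IMPACT, which competes for GCN1, from 24.6 to 20.4. DELE1, which carries mitochondrial stress to HRI, fell from 49.2 to 29 CPM, and OMA1, the protease that cuts it, was not called (-0.18 ± 0.15). Of the 8 subunits of eIF2 and of its exchange factor eIF2B, 5 rose and 2 fell, among them EIF2S1, eIF2 alpha itself (0.75 ± 0.08, from 62.6 to 106 CPM), and EIF2S2, eIF2 beta (-1.03 ± 0.08). The eIF2B genes EIF2B1 (0.71 ± 0.10), EIF2B3 (1.13 ± 0.13), EIF2B4 (0.57 ± 0.10) and EIF2B5 (0.79 ± 0.09) rose, EIF2B2 (-0.46 ± 0.10) fell, and EIF2S3, eIF2 gamma, was not called (-0.06 ± 0.07). Of the 5 phosphatase genes 4 fell, with PPP1R15A, the stress-induced subunit GADD34, going from 414 to 137 CPM (-1.60 ± 0.07, adjusted p = 1.09e-19), and its constitutive relative PPP1R15B from 274 to 165. The catalytic subunit genes PPP1CB (-0.56 ± 0.08) and PPP1CC (-0.69 ± 0.08) fell too, and PPP1CA (0.28 ± 0.08) rose.

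With the APE1 hairpin, against shCtrl, EIF2S1 fell from 96.4 to 58.0 CPM (-0.73 ± 0.08, adjusted p = 1.91e-08) and EIF2S2 from 169 to 120 (-0.49 ± 0.08). Of the 5 phosphatase genes 4 rose. PPP1R15A went from 93.8 to 121 CPM (0.36 ± 0.07) and had been at 137 in rABS, above both groups. None of the 4 kinases was called, while DELE1 (0.34 ± 0.10) and GCN1 (0.19 ± 0.07) rose, as did EIF2B4 (0.26 ± 0.10). The background was 17.8% of tested genes higher and 18.8% lower. Of the ubiquitin ligase that degrades the ATF4 protein, FBXW11, a beta-TrCP protein, fell from 93.2 to 55.1 CPM (-0.76 ± 0.08, adjusted p = 1.71e-09), CUL1 and RBX1 fell too, and BTRC (-0.18 ± 0.09) and SKP1 (0.03 ± 0.07) were not called.

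Downstream, known ATF4 target genes fell widely in rABS. The 12 aminoacyl-tRNA synthetases of one list all fell, with a median of -1.56, where 29.9% of all tested genes were called lower. They included SARS1, for serine, from 397 to 80.3 CPM and AARS1, for alanine, from 496 to 127. Of the 12, 6 rose in shCtrl against rABS, where 17.9% of tested genes were higher. In shAPE1 against shCtrl 6 fell, where 18.8% of tested genes were lower. The list also holds XPOT, a tRNA exporter, which fell in rABS (-1.43), rose in shCtrl (0.39) and fell in shAPE1 (-0.36). Against the 29.9% of all tested genes, 12 of 14 tested enzymes of amino acid and one-carbon metabolism fell in rABS. ASNS, which makes asparagine, had the smallest adjusted p of them (7.07e-30) with a log2 change of -4.92 ± 0.08, and it rose in shCtrl (1.96 ± 0.08) and fell in shAPE1 (-1.15 ± 0.07). Others were PHGDH, the first enzyme of serine synthesis, from 105 to 9.04 CPM, and PSAT1, the next one, from 211 to 75.8. In shAPE1 against shCtrl 9 of the 14 fell, against the same 18.8%. PHGDH fell to 4.71 from 17.0 CPM (-1.85 ± 0.12, adjusted p = 1.97e-13) and PSAT1 to 37.1 from 81.5 (-1.13 ± 0.08). PSAT1 had not been called between shCtrl and rABS (0.10 ± 0.08).

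Of 9 amino acid transporters 8 fell in rABS, where 29.9% of all tested genes were called lower. SLC7A11, the cystine importer, fell from 321 to 78.6 CPM and SLC7A5, the leucine exchanger LAT1, from 1396 to 562, while SLC43A1 rose from 21.4 to 26.9. The other called falls were those of SLC1A4 (-2.55 ± 0.22), SLC6A9 (-1.57 ± 0.11), SLC38A2 (-1.42 ± 0.07), SLC3A2 (-1.06 ± 0.08), SLC1A5 (-0.99 ± 0.07) and SLC7A1 (-0.80 ± 0.06). Between shCtrl and shAPE1 5 fell, SLC7A1, the arginine carrier, most clearly, from 285 to 158 CPM (-0.85 ± 0.06, adjusted p = 2.68e-12), and SLC1A5, the glutamine carrier, rose from 246 to 278. Of 10 signalling and secreted factors 9 fell in rABS, against the same 29.9% of all tested genes. GDF15, a stress hormone, went from 2444 to 147 CPM (-4.06 ± 0.09), VEGFA from 261 to 53.9 and ADM2 from 64.1 to 1.73. KLHL24 (-1.89 ± 0.10), HERPUD1 (-1.44 ± 0.08) and EIF4EBP1, a translation repressor that mTORC1 switches off (-1.38 ± 0.08), fell as well, and VLDLR was not called (-0.23 ± 0.13). INHBE and ULBP1 fell from 5.01 and 5.51 CPM to levels of 0.182 and 0.0914 CPM. With the APE1 hairpin, against shCtrl, 5 of the 10 fell and 3 rose, where 18.8% of tested genes were lower and 17.8% higher. VEGFA (-0.61 ± 0.08), ADM2 (-0.98 ± 0.18) and KLHL24 (-0.65 ± 0.10) fell. GDF15 (-0.25 ± 0.08) and ULBP1 (-1.66 ± 0.55, at 0.71 and 0.207 CPM) fell too, with overlapping groups. The rises were those of EIF4EBP1 (0.22 ± 0.08), HERPUD1 (0.25 ± 0.09) and NUPR1. NUPR1, a small stress protein, was at 1.75 CPM in Parental, 0.0336 in rABS, 0.182 in shCtrl and 1.25 in shAPE1, so its rise in shAPE1 (2.78 ± 0.53) rests on very few counts.

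**Figure D4:**
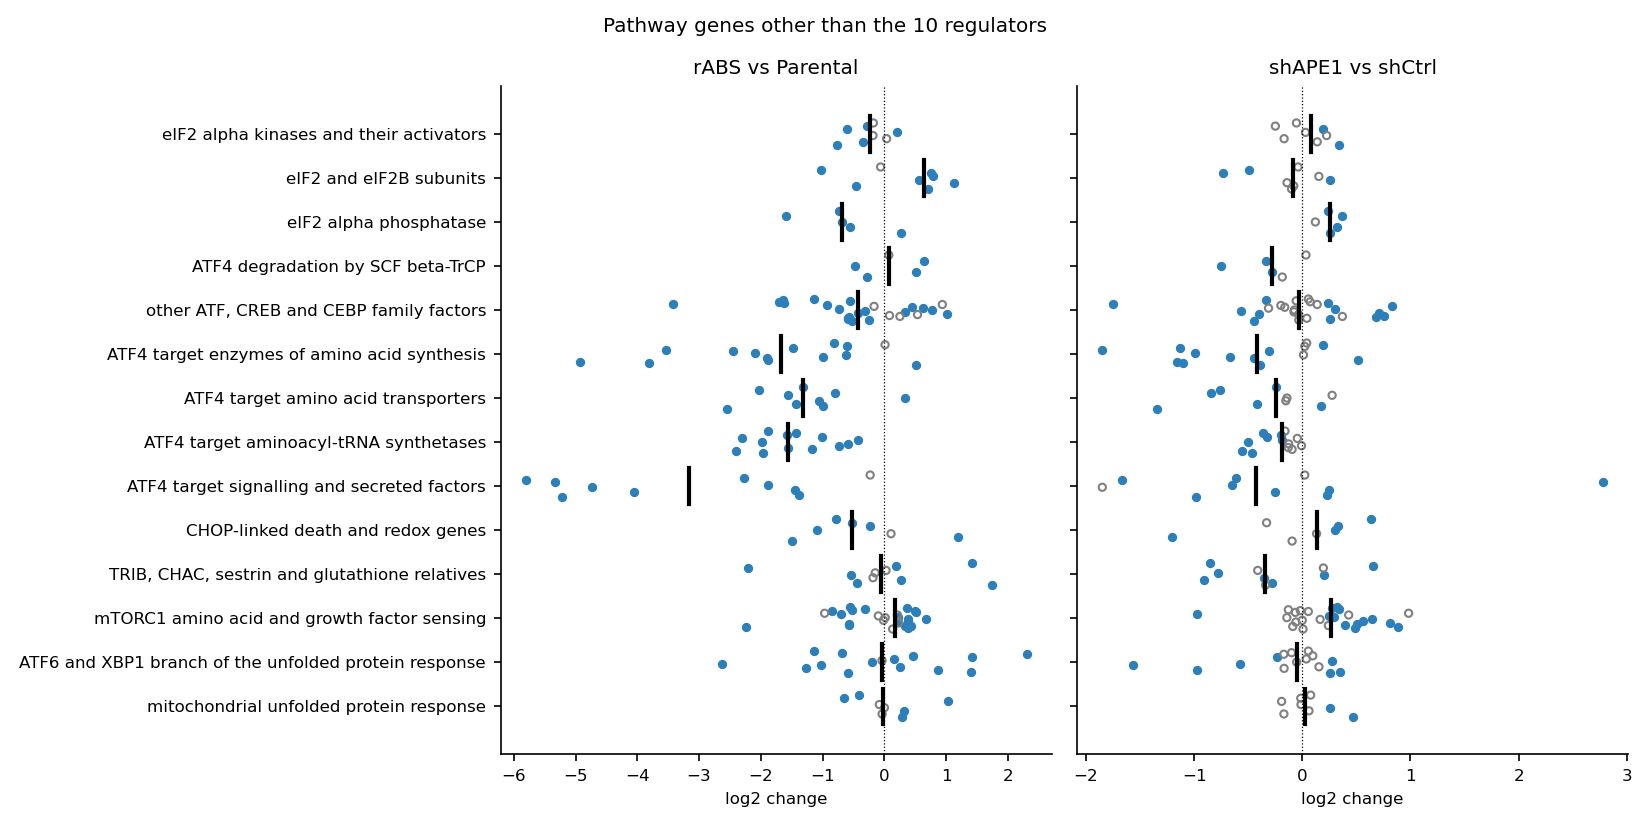
Log2 change (x axis) of the tested genes of the 14 lists (y axis) in rABS against Parental and in shAPE1 against shCtrl, 1 point per gene, filled blue where called and open grey where not, with a black bar at the list median and different x axes. In rABS the medians of the ATF4 target lists lie left of 0, down to -3.17 for the signalling and secreted factors, while in shAPE1 the mTORC1 list lies right of 0 with a median of 0.26.

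Of 7 tested genes that CHOP is tied to in cell death and redox, 5 fell in rABS, 1 rose and 1 was not called. The background was 29.9% of tested genes in each direction. BBC3 (PUMA) fell from 38.3 to 13.6 CPM in rABS, CASP4 from 115 to 54.0 and TNFRSF10B, the death receptor DR5, from 213 to 123. The 1 rise was that of BCL2, from 1.85 to 4.35 CPM. PMAIP1 (NOXA) fell (-0.52 ± 0.13), and BCL2L11 (BIM) was not called (0.11 ± 0.09). ERO1A, the endoplasmic reticulum oxidase, fell from 382 to 325 CPM (-0.23 ± 0.07), with overlapping groups. With the APE1 hairpin TNFRSF10B rose from 107 to 166 CPM (0.64 ± 0.07, adjusted p = 1.25e-08), CASP4 from 53.9 to 66.4 and ERO1A from 338 to 425, and BCL2 fell to 1.92 from 4.47. BBC3 (-0.09 ± 0.13), BCL2L11 (0.13 ± 0.09) and PMAIP1 (-0.33 ± 0.14) were not called there, and neither was DDIT3 itself.

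Close relatives of the regulators were read beside them. TRIB2 rose from 9.93 to 26.4 CPM in rABS (1.42 ± 0.12) and CHAC2 from 1.83 to 6.12 (1.74 ± 0.22), while SESN1 was at 1.95 CPM in Parental and 1.99 in rABS with a log2 change of 0.03 ± 0.30. SESN3, the other sestrin, fell from 1.62 to 0.340 CPM in rABS (-2.21 ± 0.44, adjusted p = 5.88e-05) and rose to 1.13 in shCtrl (1.69 ± 0.45, adjusted p = 0.00337), both at low levels. Between shCtrl and shAPE1 TRIB1 rose from 144 to 227 CPM (0.66 ± 0.07) and TRIB2 fell to 11.5 from 20.8 (-0.85 ± 0.11). The glutathione synthesis genes GCLM (-0.91 ± 0.11), GSS (-0.78 ± 0.08) and GCLC (-0.28 ± 0.07) fell as well, as did GGCT (-0.36 ± 0.11), and GSR, glutathione reductase, rose (0.20 ± 0.07).

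Among the other ATF, CREB and C/EBP family factors, JDP2, a repressor that pairs with JUN proteins, moved in each of the 3 steps. It fell from 47.0 to 4.38 CPM in rABS (-3.42 ± 0.12), rose to 15.4 in shCtrl (1.81 ± 0.13) and fell to 4.55 in shAPE1 (-1.75 ± 0.12, adjusted p = 7.75e-13). NFE2L2 (NRF2), the antioxidant factor, fell from 406 to 125 CPM in rABS and was not called in shAPE1 against shCtrl (0.07 ± 0.07). NFE2L1, its relative of the proteasome response, fell from 489 to 159 CPM in rABS. ATF7 rose from 30.3 to 48.3 CPM between shCtrl and shAPE1, and CREB1 fell from 65.2 to 44.1.

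Of 26 genes through which amino acids and growth factors reach mTORC1, the kinase complex that SESN2 and DDIT4 restrain, 11 rose and 8 fell in rABS, where 29.9% of all tested genes were called in each direction, so that the share of falls was near the background. CASTOR1, an arginine sensor (-2.25 ± 0.33, from 3.10 to 0.642 CPM), WDR59 (-0.55 ± 0.08) and TBC1D7 (-0.85 ± 0.13) were among the falls. Between shCtrl and shAPE1 12 rose and 1 fell, against a background of 17.8% higher and 18.8% lower. Among the rises were NPRL3 of the GATOR1 complex, from 120 to 187 CPM (0.64 ± 0.07, adjusted p = 8.09e-09), and FNIP2, a folliculin partner, from 20.6 to 36.1. MLST8, a subunit of mTORC1, rose from 92.5 to 137 CPM and had been at 124 in rABS. In shCtrl against rABS 5 of the 26 had risen and 9 fallen, where 17.9% of tested genes were higher and 18.6% lower. In shAPE1 against rABS 7 rose and 3 fell, where 23.8% were higher and 26.2% lower, and MLST8 was not called (0.15 ± 0.08). The branches of the unfolded protein response that do not run through eIF2 alpha were divided in rABS. Of 15 genes 7 rose and 7 fell, a larger share in each direction than the 29.9% of all tested genes. ERN1 fell from 170 to 27.4 CPM and XBP1 from 265 to 121, while CALR, a chaperone, rose from 423 to 1120 and CRELD2 from 9.73 to 17.6. In shAPE1 EDEM1, which hands misfolded glycoproteins to degradation, fell to 42.5 from 126 CPM (-1.56 ± 0.07, adjusted p = 4.67e-17). Of 8 genes of the mitochondrial response, in which ATF5 is known to act, CLPP (0.29 ± 0.08), DNAJA3 (0.31 ± 0.07) and HSPE1 (1.03 ± 0.11) rose in rABS, and LONP1 (-0.66 ± 0.08) and YME1L1 (-0.41 ± 0.08) fell. These counts, 3 and 2 of 8, are near the 29.9% of all tested genes in each direction. HSPD1 (-0.08 ± 0.07), HSPA9 (0.00 ± 0.07) and CLPX (-0.04 ± 0.09) were not called.

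The promoter letters were also read against the wider lists. Of 135 list genes with a promoter window, 14.8% held TGATGNAA, and the 19 tested ones among them all fell in rABS, against 54 falls and 36 rises among 111 list genes without it. The lists mix known ATF4 targets with other genes, such as those of mTORC1 sensing and of the mitochondrial response. Genes with and without the letters were not matched by list, so this is a description of them. Over all 300 tested genes with the letters, 125 fell and 77 rose, where 29.9% of all tested genes were called in each direction. In shCtrl against rABS 8 of the 19 rose and 2 fell, with 29 rises and 30 falls among the 111 list genes without the letters and 76 rises and 51 falls among the 300. Between shCtrl and shAPE1, 10 of the 19 fell and 5 rose, with 30 falls and 24 rises among the 111 and 84 falls and 60 rises among the 300. Over all tested genes 17.9% rose and 18.6% fell in shCtrl against rABS, and 17.8% rose and 18.8% fell in shAPE1 against shCtrl.

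The 3′ untranslated regions were searched for 3 overlapping 7-mers, of which TGCATTC is the middle one, that an earlier search of the same fold changes in shAPE1 against shCtrl had picked. None of the 10 genes held any of them in its longest GENCODE 29 region, of 83 bases in ATF4 to 2994 in CEBPG. Over 12471 genes searched 29.1% held one, and of the 2732 called falls in that comparison 48.7% did. The falls of ATF4, CEBPB, CEBPG, TRIB3 and CHAC1 in shAPE1 are thus among those without these strings.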

How the data were processed

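RNA was sequenced from 12 OE33 libraries, 3 in each of 4 groups. The deposited table holds unnormalized counts for each Ensembl ID. Per the submitters' processing notes, the authors made these counts with Trimmomatic 0.36, STAR 2.5.2b, GRCh38 and featureCounts of Subread 1.5.2. Neither the annotation release nor the strand setting or the handling of multimapping reads is stated there (not given in the sources used here). Symbols were matched for 56410 of 57500 IDs. Positions, exon lengths and 3′ untranslated regions came from GENCODE 29, and promoters from RefSeq (GRCh38.p14).

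Genes were kept with filterByExpr (minimum count 10, minimum total 15), libraries scaled with TMM, and edgeR 4.0.16 (R 4.3.3) was run over the 12 libraries together with its quasi-likelihood test, robust dispersions and a mean for each of the 4 groups. The test was tested on simulated data. The call threshold was 0.05 on the Benjamini-Hochberg adjusted p. Log2 CPM used a prior count of 2. Replicates of a group correlated at 0.987 or more and differed by more than counting noise.

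The members and lists were chosen with earlier results of these data known. Named were APEX1, all members, every gene of lists with up to 10 tested genes, the 3 of longer lists with the smallest adjusted p in each of rABS against Parental and shAPE1 against shCtrl, and the 5 genes nearest to ATF4. Alternatives were other scalings, DESeq2 1.42.0, limma-voom (limma 3.58.1), no filter, the 6 libraries alone, a replicate block, and leaving out each library.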

Additional observations from a re-analysis of the deposited data

How the results depend on the processing

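Over 14 alternatives for each of 60 changes, 799 of 840 values kept their direction and side of the threshold, 24 lost the call, 6 gained it and 11 changed sign. Those 11 were changes near 0 that were not called: CHAC1 in shAPE1 against rABS (-0.00289 without the filter, and from -0.127 to 0.126 when each library was left out), DDIT3 in shAPE1 against rABS (from -0.0055 to 0.161 when each library was left out) and DDIT3 in shAPE1 against shCtrl (0.0204 with upper-quartile factors, 0.00117 with DESeq2, and from -0.149 to 0.0546 when each library was left out). The number of the 10 genes called, 10, 7, 7, 10, 9 and 5 in the 6 comparisons in the order of the text, stayed within 1.5 times in every alternative.

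Replicate numbers did not pair the libraries: deviations of same-numbered libraries correlated at -0.167 to 0.109, with 1 of 18 pairs over 0.1, and a library correlated best with its own number in 11 of 36 checks. With a replicate block the counts were 10, 6, 7, 10, 9 and 5, and 132, 83, 84, 124, 117 and 94 list genes were called. Scaling by library totals alone moved the median of all genes from -0.01 to 0.13 in rABS, from 0.03 to 0.22 in shCtrl and from 0.00 to 0.14 in shAPE1, each against Parental, and the share of calls that were higher from 50% to 60.2%, from 50.9% to 70% and from 48.8% to 61.7%. For shAPE1 against shCtrl that share moved from 48.5% to 38.2%. Depth limits DDIT3 most: at 3.28 to 4.56 CPM in the exposed groups its standard error reached 0.17.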

Other observations

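Genes within 1 Mb of each regulator gave a view of the regions around them. In rABS against Parental the median log2 change of tested neighbours was -0.01 around ATF4 (35 genes) and CEBPB (28), 0.10 around CEBPG (18), 0.23 around CHAC1 (50, of which 22 rose and 13 fell) and 0.33 around SESN2 (38, of which 20 rose and 8 fell), against -0.01 over all genes, of which 29.9% were called in each direction. It was -0.32 around ATF3 (17), -0.33 around DDIT3 (33, 19 fell and 8 rose), -0.37 around DDIT4 (23, 12 fell and 4 rose) and -0.75 around TRIB3 (22, of which 12 fell and 4 rose). Around ATF5, the one regulator that rose, it was 0.33, the same as around SESN2, which fell, with 27 of 59 neighbours higher and 7 lower. The neighbour median had the sign of the regulator's own change around ATF3, ATF5, DDIT3, DDIT4 and TRIB3. It had the opposite sign around CEBPG, CHAC1 and SESN2, and around ATF4 and CEBPB it equalled that of all genes. A part of the regions in these changes was not tested. In shCtrl against rABS the medians lay between -0.19 around SESN2 and 0.26 around ATF4, both of which rose there, against 0.02 over all genes. Of the 35 neighbours of ATF4 11 rose and 6 fell, where 17.9% of tested genes were higher and 18.6% lower. In shAPE1 against shCtrl the medians lay between -0.20 (CEBPG) and 0.23 (CEBPB). The windows hold few genes, and copy number was not measured.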
